A study of Mus musculus with 9 samples.

Results

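H3K27ac-marked contacts between gene promoters and distal peaks were examined in mouse embryonic stem cells. A pair of 2 kb bins was taken when both bins were H3K27ac peaks, the bins lay under 300 kb apart, and exactly 1 of the 2 bins held the start of a protein-coding transcript in GENCODE M21 on mm10. That bin is called the promoter bin and the other the distal bin. The untreated list held 10148 such interactions of 36274, and the list after 12 h of IAA held 8073 of 28210. Together they held 13664 distinct bin pairs, and 4557 of these were called in both lists. All 4 interaction lists of the study together held 137744 rows.

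The cells were E14 mouse embryonic stem cells of the genotype CTCF AID, in which CTCF carries an auxin-inducible degron, and all groups carry it. They were grown without serum, with LIF and the inhibitors PD0325901 and CHIR99021. IAA is an auxin that triggers degradation of AID-tagged proteins. The H3K27ac groups were untreated cells and cells given IAA for 12 h, with 2 libraries each. CTCF (2 libraries) and RAD21 (3 libraries) were profiled in untreated cells, and how much CTCF protein remained was not analysed here. MNase HiChIP ligates chromatin ends that lie close together after micrococcal nuclease digestion and enriches the products with an antibody. Each group is 1 list pooled over its libraries, so no value has a replicate error, intervals cover counting error only, and tests compare pooled libraries, not conditions.

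H3K27ac marks active promoters and enhancers. Enhancers are bound by transcription factors and raise transcription of genes that may lie far away or beyond other genes. CTCF binds DNA in a fixed orientation and stalls the cohesin complex, of which RAD21 is a subunit, as cohesin extrudes chromatin loops. In embryonic stem cells, ESRRB, KLF2, KLF4, KLF5, OCT4 and SOX2 are regulators of pluripotency that bind enhancers. The nuclear receptor ESRRB binds TCAAGGTCA, KLF factors bind sites of the form GGGNGTGGC, and OCT4 binds the octamer ATGCAAAT, which is also a part of the OCT4-SOX2 composite motif.

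The distal bins with the most contacts are shown first for 5 genes in which they held an exact match to the ESRRB letters, in capitals. Every sequence printed here is the plus strand of mm10, 5′ to 3′, with a flank of 30 bases on each side of the match, so a match on the minus strand reads TGACCTTGA.
Sox2, chr3:34756556-34756624: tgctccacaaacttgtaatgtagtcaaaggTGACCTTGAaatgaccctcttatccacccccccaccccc
Klf4, chr4:55476395-55476463: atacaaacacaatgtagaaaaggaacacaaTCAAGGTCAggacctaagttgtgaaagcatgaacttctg
Esrrb, chr12:86502029-86502097: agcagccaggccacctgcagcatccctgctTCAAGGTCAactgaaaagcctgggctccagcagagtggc
Tgif1, chr17:70828454-70828522: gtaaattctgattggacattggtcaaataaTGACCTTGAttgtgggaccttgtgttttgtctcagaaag
Eif4ebp1, chr8:27240976-27241044: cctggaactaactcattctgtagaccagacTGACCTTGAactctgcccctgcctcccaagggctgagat

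The second set shows a KLF match in the leading distal bins of Zfp42, Dppa5a and Klf2, with 119, 252 and 96 untreated contacts. A match on the minus strand is printed as its reverse complement.
Zfp42, chr8:43320793-43320861: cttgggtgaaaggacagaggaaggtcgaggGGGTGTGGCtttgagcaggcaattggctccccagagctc
Dppa5a, chr9:78375020-78375088: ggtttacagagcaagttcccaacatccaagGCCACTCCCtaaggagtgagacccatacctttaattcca
Klf2, chr8:72334572-72334640: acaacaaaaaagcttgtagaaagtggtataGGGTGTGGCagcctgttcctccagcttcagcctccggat

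The third set shows leading distal bins of genes described in the comparison of the lists. Dhx8 and Bcl2l1 had fewer contacts after IAA with distal bins that held the CTCF motif core, and neither pair passed the test after adjustment. Eif2b5 had more with a distal bin that held an octamer on the minus strand. An octamer was also present in the leading distal bins of Eif4a2, Dusp27 and Dhx8, whose counts were lower after IAA (65 and 42 at Dusp27, and 36 and 10 at Dhx8). The octamer windows of Eif2b5 and Eif4a2 had the same base at 60 of 68 positions. The same run of bases directly around the octamer also lay in a chr12 distal bin linked to Irf2bpl and Cipc. That bin had 28 contacts untreated and 27 after IAA with Irf2bpl, and 24 and 39 with Cipc.
Dhx8, chr11:101658939-101659012: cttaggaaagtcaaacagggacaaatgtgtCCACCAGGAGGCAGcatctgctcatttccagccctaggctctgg
Bcl2l1, chr2:152696916-152696989: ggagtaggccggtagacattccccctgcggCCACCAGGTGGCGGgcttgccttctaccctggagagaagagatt
Eif2b5, chr16:20479203-20479270: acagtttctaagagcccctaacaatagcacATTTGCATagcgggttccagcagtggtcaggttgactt

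An exact ESRRB match was present in 818 of 7655 distal bins (10.7%) and in 4.18% of all 2 kb bins of the genome. Both strands were searched for every motif. The KLF motif was present in 16.3% of distal bins and in 6.79% of all bins, whereas the octamer was present in 10.3% and in 16.3%. The CTCF core, with up to 1 mismatch, was present in 15.7% of distal bins and in 5.42% of all bins. The OCT4-SOX2 composite motif, with up to 1 mismatch, was found in 9 distal bins (0.118%, against 0.0806% of all bins). Base composition moved with these shares, since distal bins were 48.0% GC and all bins 41.7%, and its part in them was not tested. Among 8959 other peak bins without a protein-coding start, at 47.5% GC, the ESRRB share was 8.72% (8.15 to 9.32), below that of the distal bins.

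Promoter bins, at 54.0% GC, differed from the distal bins in both directions. The ESRRB motif was present in 5.33% of 4239 promoter bins (95% Wilson interval 4.69 to 6.05) and the KLF motif in 21.2%. The ESRRB share was 9.40% in distal bins whose strongest promoter contact had 7 to 9 counts and 16.4% (12.0 to 22.1) in the 207 distal bins at 50 or more. Over the same classes the CTCF core went the other way, from 18.9% (16.7 to 21.3) to 12.1% (8.32 to 17.2). Distal bins whose pair was also an interaction of the CTCF list held the core in 54.2% of 640 cases (50.3 to 58.0), against 13.1% of the bins in other pairs.

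Contacts per interaction were low. The untreated median was 13 contacts, with a range of 7 to 252, and the median after IAA was 14, with a range of 7 to 189. The authors' model, which takes distance and coverage into account, predicted fewer: the median ratio of observed to predicted contacts was 5.61 in the untreated and 5.53 in the IAA list. The median span was 24 kb in both lists, and the smallest span was 6 kb. Near the distance limit there was no step, since the 17 untreated pairs at 290 to 298 kb had a median of 9 contacts and the 13 pairs just outside, at 300 to 310 kb, had a median of 8.

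Of 21899 protein-coding genes with an annotated start, 4368 (19.9%) were linked to a distal peak in the untreated list and 3819 (17.4%) after IAA, and 2956 were linked in both. Genes whose interactions were identical because they share promoter bins are counted together below as 1 gene group and named with a slash. The 3989 untreated gene groups had a median of 2 distal bins and 22.0 summed contacts. A share of 48.2% had a single distal bin, while 503 had 5 or more and 112 had 10 or more. The 50 groups with the most contacts held 11.8% of the summed contacts.

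Sfi1, which encodes a centrin-binding protein of the centrosome, ranked first with 957 untreated and 1349 IAA contacts. Its 45 untreated interactions joined 2 promoter bins to 26 distal bins, at spans of 6 to 60 kb. Words of 31 bases that recur elsewhere in the genome made up 17.3% of its distal bins, against a median of 6.52% and a range of 2.54% to 26.3% in the other 25 genes checked. The highest of these shares was that of Eif4a2, and the promoter bin of Eif2b5 held 11.6% of such words. The part of repeated sequence in the rank of Sfi1 and in the contacts of Eif4a2 and Eif2b5 was not tested. Tgif1, a homeodomain corepressor in TGF-beta signalling, was second with 732 contacts untreated and 489 after IAA. Its leading distal bin, the one printed with the ESRRB match, lay 20 kb downstream and had 52 and 37 contacts. Trip12, a ubiquitin ligase, followed with 639 and 574 contacts and had its leading partners in introns of Fbxo36, a gene that shares one of its 2 promoter bins and is itself linked to them there. Mcl1, an anti-apoptotic relative of BCL2, had 519 and 449 contacts, and H2-M5, an MHC class I gene, had 513 and 443.

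Below them, between 467 and 488 contacts and too close to order given their counting error, came 4 more genes. They were Arid5b, an ARID-domain DNA-binding protein, Eif4ebp1, a repressor of cap-dependent translation, Ywhag, a 14-3-3 protein, and 2410137M14Rik. The leading partner of Eif4ebp1 lay 20 kb upstream in an intron of Adrb3 and had 85 contacts untreated and 67 after IAA. The leading partner of Ywhag lay 22 kb upstream and had 106 and 108 contacts, almost equal counts. Of the top 10 groups, 7 were also in the top 10 after IAA, and 38 of the top 50 were in the top 50. Sums count whatever was called in a list, so they are not compared between lists as ratios here.

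**Figure D1:**
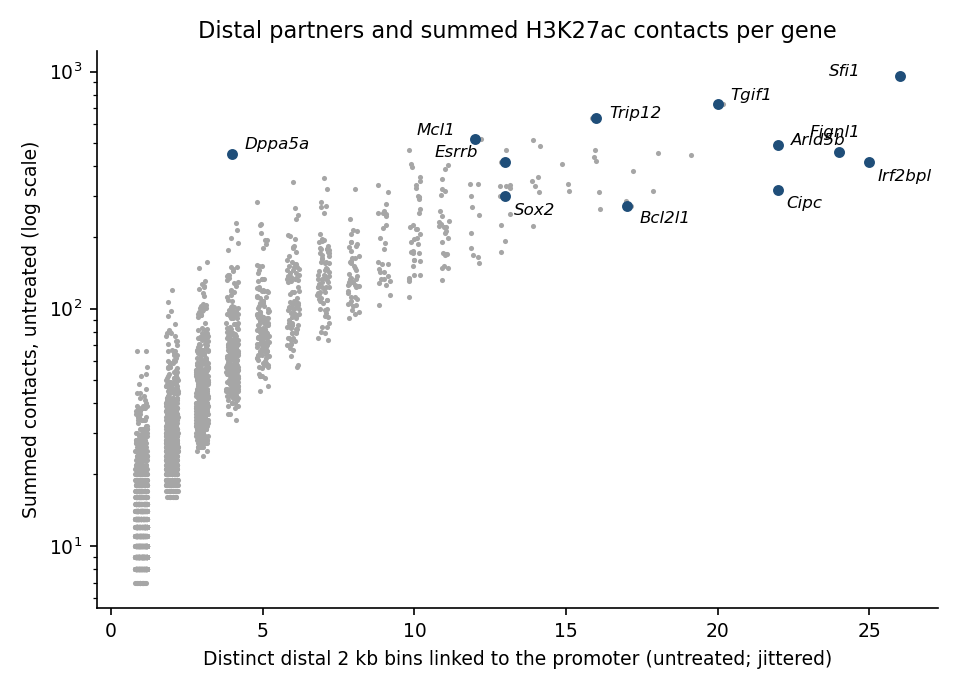
Each point is 1 gene group of the untreated list, with its number of distinct distal 2 kb bins on the x axis (jittered sideways) and its summed contacts on a log y axis; named genes are dark. Contacts rise with the number of partners, from single partners at the left to Sfi1 with 26 bins and 957 contacts, while Dppa5a reaches 451 contacts with 4 bins.

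Ranking by number of partners named partly different genes, since 3 genes were in the top 10 by both measures: Sfi1, Tgif1 and Arid5b. Irf2bpl had 25 distal bins with 415 contacts, and Fignl1, an ATPase of homologous recombination, had 24 with 460 contacts. Cipc, a repressor of the circadian clock, had 22 distal bins and 318 contacts. Arid5b also had 22, which fell into 13 separate runs of adjacent bins. Its 4 leading partners all lay in its own introns, 8 to 94 kb from the promoter bin. Below these came Tgif1 with 20, Zfp57, a zinc finger protein that maintains imprints, with 19, and Sema4b and the inhibitory SMAD Smad7 with 18 each. Tbx3, the nucleolin gene Ncl and Bcl2l1, which encodes BCL-XL, each had 17.

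Most distal bins contacted a single promoter bin. Of 7658 untreated distal bins, 21.8% contacted 2 or more promoter bins and 515 contacted 3 or more, up to 9. One of the 2 bins with 9 promoter bins lay in Gdf3 at chr6:122608001-122610000 and its promoters included Nanog, Dppa3, Phc1, Slc2a3, Apobec1, Necap1 and Rimklb, with 189 contacts untreated and 188 after IAA. Nanog encodes a homeodomain regulator of pluripotency, and Dppa3 a maternal factor that protects methylation. The other lay in Gpx4 at chr10:80050001-80052000, with 149 and 150 contacts, and its promoters included Stk11, Polr2e and Ptbp1. A bin in Junb at chr8:84976001-84978000 contacted 8 promoter bins with 162 and 142 contacts. After IAA the same bins contacted 7, 8 and 6 promoter bins.

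The interaction with the most contacts was that of Dppa5a, an RNA-binding protein of embryonic stem cells, with a bin 6 kb upstream: 252 contacts untreated and 189 after IAA, where the model predicted 25.3 and 25.9. Mcl1 had 183 and 156 contacts at 6 kb, and the chaperone gene Hspa8 had 134 and 122 at 6 kb. Zfp42, the pluripotency marker Rex1, had 119 and 115 contacts with a bin 14 kb upstream, against 5.16 and 5.74 predicted. Bcl3, an IκB-family protein, had 116 and 71 contacts with its own intron at 6 kb. The same 116 untreated contacts were counted for Klf9, with 79 after IAA, and for 2410137M14Rik, with 126. The count was thus lower after IAA for 6 of these 7 pairs and higher for 2410137M14Rik, and none passed the test described below after adjustment. The pairs were picked for their high untreated counts, which by itself favours a lower count in the other list. No conclusion about IAA is drawn from this tally.

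Distal bins lay within the body of the linked gene in 22.2% of the untreated interactions (21.4 to 23.0) and within another protein-coding gene in 33.4% (32.5 to 34.4). A further 10.6% overlapped only non-coding genes, and 33.8% overlapped no annotated gene. Distal bins in the linked gene were near, with a median span of 12 kb, against 34 kb for those in another protein-coding gene. More distal bins lay upstream of the promoter (51.1%) than downstream (40.4%), and the rest had linked genes on both strands. The IAA list had much the same makeup, with 23.1% in the linked gene and 32.3% in another protein-coding gene.

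More than 1 in 3 interactions passed over a nearer promoter. The start of at least 1 other protein-coding gene lay in a bin between the 2 bins in 36.3% of the untreated interactions (35.4 to 37.2) and in 34.0% of 8073 after IAA. Counting only starts in bins that were themselves peak anchors gave 28.9%. At least 2 genes were skipped in 17.6% and 5 or more in 3.67%. The start nearest to the distal bin belonged to the linked gene in 41.8%. Skipping rose with span, from 13.2% under 20 kb to 79.6% from 100 kb. Among distal bins inside another protein-coding gene, 66.8% of the interactions skipped a start, against 31.1% where the distal bin lay in no gene.

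**Figure D2:**
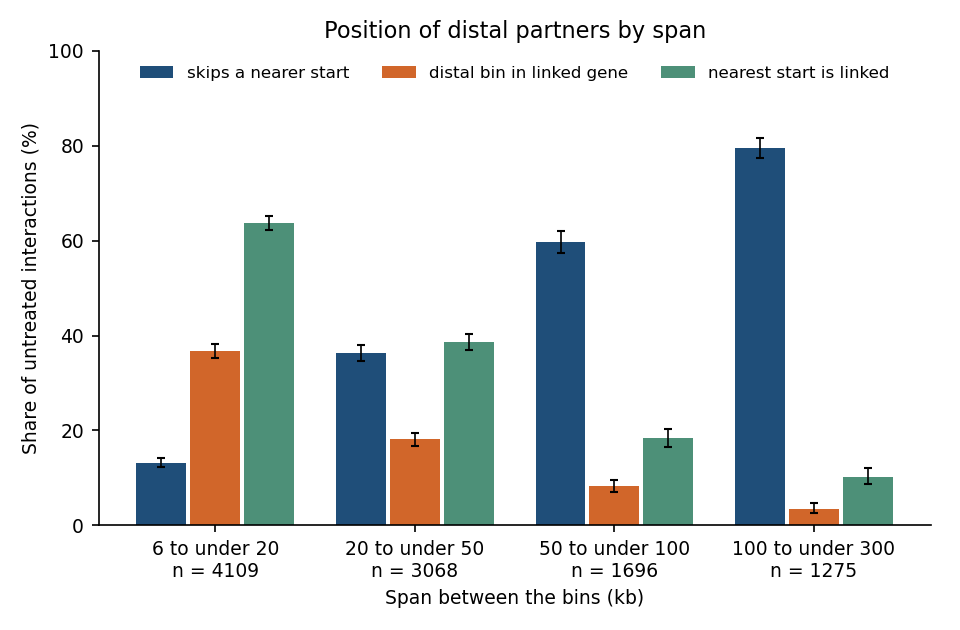
Bars give the share of untreated interactions (y axis, percent) in 4 classes of span (x axis, kb, with n) that skip a nearer start, have the distal bin in the linked gene, or link the nearest start; whiskers are 95% Wilson intervals. Skipping rises from 13.2% to 79.6% while the nearest start is linked in 63.7% of the shortest and 10.2% of the longest spans.

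The widest skips with at least 20 contacts crossed gene-dense regions. Dnpep, an aminopeptidase gene, contacted a bin at Nhej1 and Slc23a3, 192 kb away, over 14 other promoter bins, with 24 contacts untreated and no call after IAA. The promoter bin shared by Mrps18b and Ppp1r10 contacted Tubb5 over 9 promoter bins at 80 kb, with 29 contacts untreated and 23 after IAA. The bin shared by Emc10 and Fam71e1 contacted Clec11a, 192 kb away over 9 promoter bins, with 20 contacts and no call after IAA. One of these 3 was thus called in both lists.

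Regulators of pluripotency were linked more often than factors of later lineages. Of 30 pluripotency regulators, 23 (76.7%) had a distal partner untreated and 22 after IAA, with a median of 6 distal bins and 120 contacts among those linked. Of 30 factors of later lineages, 2 (6.67%) were linked untreated, Cdx2 and Eomes, with 9 contacts each, and neither was linked after IAA, when Tal1 was the single linked gene of that list. Housekeeping genes were linked in 18 of 20 cases, with a median of 3 distal bins. Among targets of the WNT, LIF, TGF-beta and FGF pathways 16 of 30 were linked, among DNA methylation enzymes 3 of 9, and among Myc-family genes 3 of 6, beside 19.9% of all protein-coding genes. A gene is counted where its promoter bin is an H3K27ac peak, so a gene without the mark cannot be linked.

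Sox2, a partner of OCT4, had 13 distal partners untreated and 10 after IAA, and none of the 13 pairs was in the CTCF list. Its most contacted bins lay 106 kb downstream with 43 contacts untreated and 31 after IAA, 108 kb downstream with 43 and 18, and 110 kb downstream with 38 and 33. All 3 lay in no gene and had Sox2 as the nearest protein-coding start. Klf4 had a similar block 54 to 58 kb downstream, whose 3 leading bins had 33, 28 and 26 contacts untreated and 38, 29 and 32 after IAA. The counts of these bins were thus lower in the IAA list at Sox2 and higher at Klf4, and neither gene's summed contacts passed the test after adjustment. Both genes were named after their values were seen. Leading bins, here and for the genes below, are those with the most untreated contacts. That choice by itself favours a lower count after IAA, so no conclusion is drawn from their direction. Esrrb had its leading partner in its own intron 32 kb downstream, with 66 contacts untreated and 48 after IAA. Klf2 had 96 and 61 contacts at 16 kb, and Pou5f1, which encodes OCT4, had 48 and 30 at 6 kb upstream.

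Nanog was linked on both sides. The bin 58 kb downstream, in an intron of Slc2a3, had 42 contacts untreated and 28 after IAA, and the bin 44 kb upstream had 39 and 43. The Gdf3 bin 98 kb upstream had 27 and 50 contacts. None of these differences passed the exact binomial test, with an adjusted p of 0.679 for the Gdf3 bin and of 1 for the other two. Over all 13 shared pairs of Nanog the log2 ratio was 0.06 (-0.19 to 0.30, exact test, adjusted p = 1).

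Among other fixed lists, Socs3, a LIF target that inhibits JAK-STAT signalling, had 11 distal partners untreated and 3 after IAA, and its leading bin had 56 and 39 contacts. Tet2, which oxidises methylated cytosine, contacted its own intron at 20 kb with 45 contacts untreated and 32 after IAA. Etv5, an ETS factor downstream of FGF, had 15 interactions untreated and 10 after IAA. Mycn contacted the non-coding gene Platr19 152 kb away with 20 and 16 contacts. Myc was linked after IAA alone, by 1 interaction of 14 contacts. The bins given for Socs3, Tet2 and Mycn were likewise those with the most untreated contacts.

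**Figure D3:**
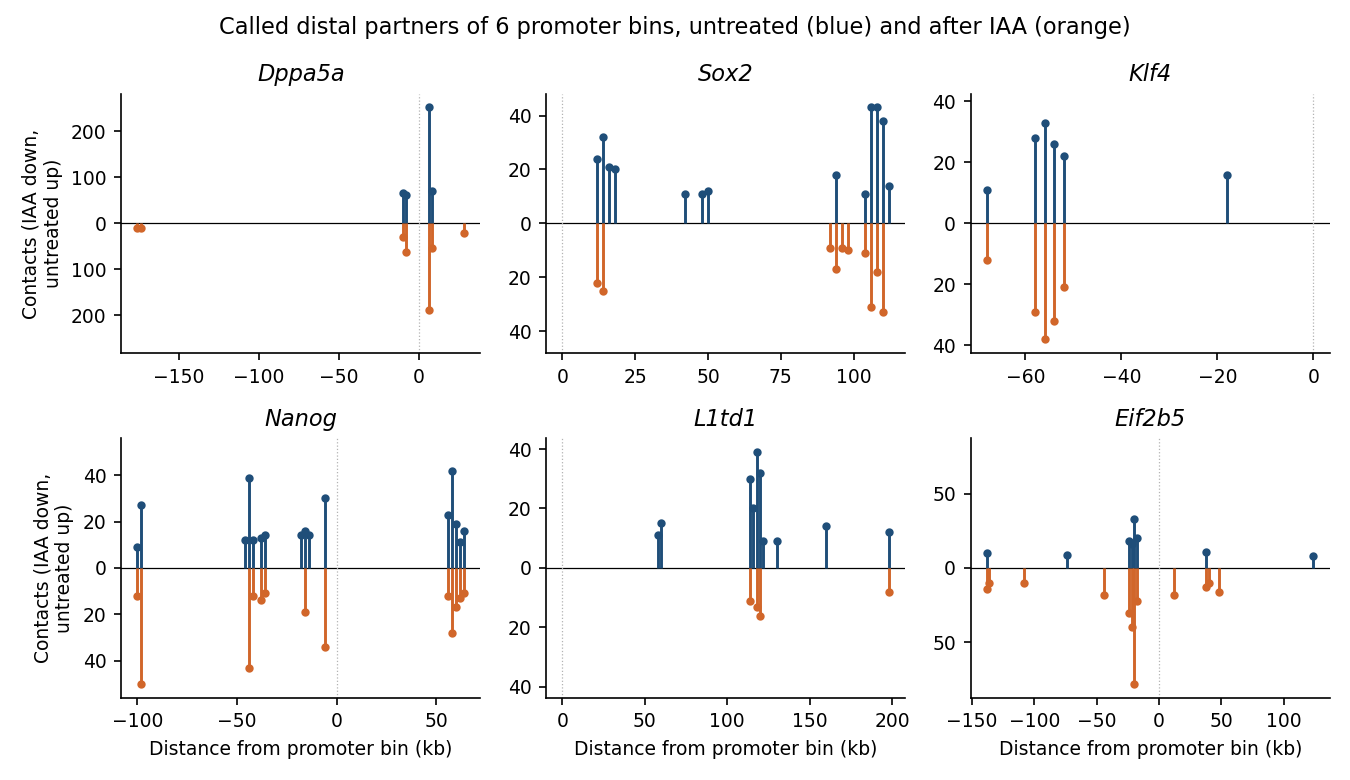
For 6 promoter bins, vertical lines give contacts of each called partner (y axis, untreated upward in blue, IAA downward in orange) at its distance from the promoter bin (x axis, kb, positive toward higher coordinates). A missing line means that the pair was not in that list. L1td1 is shorter below the axis, Eif2b5 is longer below it, and the Klf4 block is nearly symmetric.

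After IAA, 4557 of the 10148 untreated interactions were called again at the same bin pair (44.9%, 43.9 to 45.9), beside 42.9% of all untreated H3K27ac interactions. In the other direction, 56.4% of the IAA interactions (55.4 to 57.5) were also called untreated, beside 55.1% of the whole list. The share called again followed the contact count: 15.2% at 7 to 9 contacts, 32.6% at 10 to 14, 59.2% at 15 to 24, 87.3% at 25 to 49, and 221 of 221 at 50 or more. Promoter-promoter pairs under the same filters were called again in 51.5% of 4211 and distal-distal pairs in 47.4% (46.6 to 48.2).

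**Figure D4:**
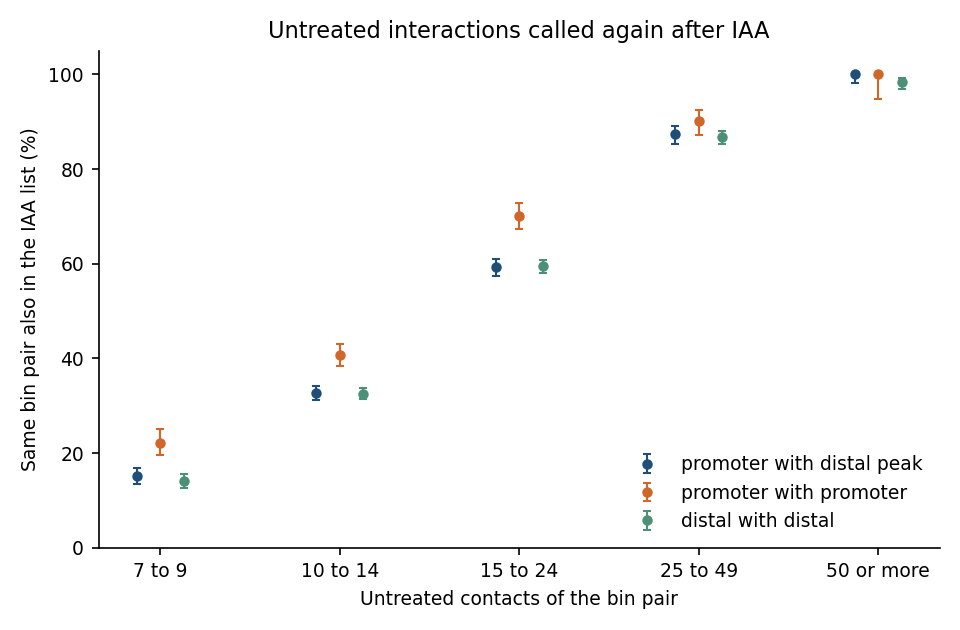
Points give the share of untreated pairs whose bin pair is also in the IAA list (y axis, percent) by untreated contacts (x axis), for promoter-distal, promoter-promoter and distal-distal pairs; whiskers are 95% Wilson intervals. Promoter-distal pairs rise from 15.2% to 100% and lie near the distal-distal pairs, with promoter-promoter pairs higher in the first 3 classes.

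Interactions that skip a nearer start were called again in 34.5% (32.9 to 36.0) and the others in 50.9% (49.6 to 52.1). They also had fewer contacts, with a median of 11 against 15. Within classes of contact count the difference was -1.50 percentage points (-3.40 to 0.39). Within classes of both contact count and span, where skipping pairs are compared with others of like length, it was -7.49 points (-9.83 to -5.15). The size of the difference thus depended on whether span was held fixed. It was -7.21 points (-9.64 to -4.79) among pairs outside the CTCF list, and -7.04 points (-10.7 to -3.35) among those that also had no anchor of the CTCF list between the bins.

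Interactions that were also in the CTCF list were called again less often. There were 728 of them (7.17% of the untreated interactions), and 280 (38.5%) were called again, against 45.4% (44.4 to 46.4) of the rest. Within classes of contact count the difference was -8.12 points (-11.3 to -4.92), and within classes of contact count and span -10.7 points (-13.8 to -7.49). At 25 to 49 contacts, 75 of 100 such pairs and 88.4% of 1082 others were called again. Under 20 kb the shares were 54.0% of 211 such pairs (47.3 to 60.6) and 50.6% of the others, whereas they were 27.2% and 40.1% at 50 to 99 kb and 19.7% and 34.5% from 100 kb upward. Of the 659 pairs in the RAD21 list, 48.9% (45.1 to 52.7) were called again, against 44.6% of the others (43.6 to 45.6), with 70.9% and 49.9% under 20 kb and 25.2% and 33.5% from 100 kb upward. The RAD21 difference had the opposite sign within contact classes, at -3.64 points (-6.83 to -0.45), and within classes of contacts and span, at -7.06 points (-10.3 to -3.85). In the IAA list, 4.38% of the interactions were pairs of the untreated CTCF list and 4.58% of the RAD21 list, against 7.17% and 6.49% in the untreated list.

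Of 1403 untreated interactions with at least 25 contacts, 150 (10.7%) were not called after IAA, beside 17.1% of 5336 in the whole untreated list. In the other direction, 72 of 1232 IAA interactions (5.84%) were not called untreated, beside 9.93% of 4721. The largest of the first kind were Mlec, which encodes malectin, with 47 contacts in its own intron at 6 kb, Slc35b1, a nucleotide sugar transporter family gene, with 43 contacts 136 kb downstream, and the elongation factor gene Eef1a1 with 41 contacts 46 kb upstream. The largest of the second kind were Arhgdia with 49 contacts at 6 kb, the chromatin remodeller Smarcad1 with 42 in its own intron, and the bin shared by Prdx2, Rnaseh2a and Gm49661 with 39 contacts to Junb. A missing call gives no count, so no fold is stated for these.

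For the 4557 pairs in both lists, the 2 contact counts were compared by an exact two-sided binomial test with the split expected from all 15551 shared H3K27ac interactions, and p-values were adjusted over all of those by the Benjamini-Hochberg method. Of the shared pairs, 3 passed an adjusted p of 0.05 (0.0658%), beside 0.135% of all shared interactions. The 2 that rose compare with 0.0965% of all shared interactions that rose, and the 1 that fell with 0.0386%. At an unadjusted p under 0.05 there were 182 (3.99%), and the share of all shared interactions at that limit was not computed. The median log2 ratio of IAA to untreated contacts was 0.03, the same as over all shared interactions. Scaled instead by the contacts in the authors' models, the log2 ratio of every pair is lower by 0.25, and 0 pairs rose and 18 fell. That shift applies to all shared interactions. How many of those changed under it was not computed, so the 18 falls do not set these pairs apart. Only pairs called in both lists enter, so a pair whose contacts fell below the threshold is not seen here.

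Zfp219, a zinc finger protein gene, rose from 10 to 39 contacts with a bin 48 kb upstream (log2 ratio 1.99, 0.99 to 2.99, adjusted p = 0.0188, exact binomial test). Eif2b5, a subunit of the eIF2B exchange factor, rose from 33 to 78 contacts with the octamer-bearing bin 20 kb upstream (1.27, 0.68 to 1.86, adjusted p = 0.0111, exact binomial test). Senp3, a SUMO protease gene, fell from 59 to 18 contacts at 32 kb (-1.68, -2.44 to -0.92, adjusted p = 0.00516, exact binomial test). The CTCF and RAD21 lists both held the Senp3 pair, and those of Zfp219 and Eif2b5 were in neither the CTCF nor the RAD21 list.

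Shared pairs in the CTCF list had lower ratios as a group. Their median log2 ratio was -0.15, with 175 of 280 (62.5%) below 0, against 0.03 and 47.5% below 0 outside that list. In the RAD21 list the median was -0.19, with 68.0% of 322 below 0. At least 2-fold falls were seen for 10 of the 280 CTCF-list pairs and at least 2-fold rises for 0. Over all shared interactions 1.23% fell and 1.28% rose by that much. Where the distal bin lay in the linked gene the median was 0.03, and where it lay in no gene it was -0.01.

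**Figure D5:**
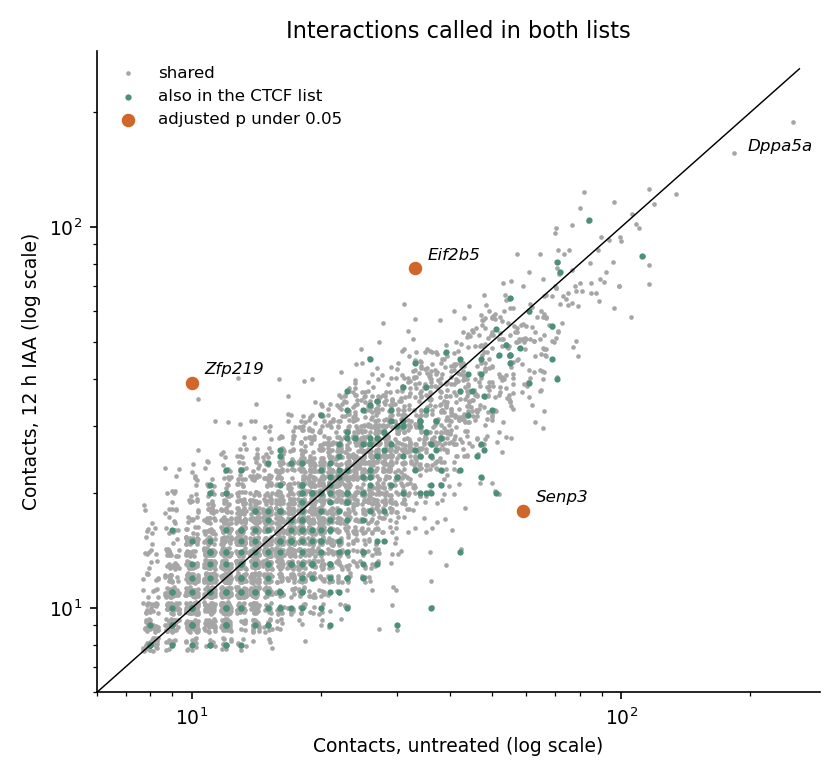
Each grey point is 1 of the 4557 pairs called in both lists, with untreated contacts on the x axis and IAA contacts on the y axis, both log scales and jittered; green points are pairs also in the CTCF list and the line marks equal counts. Orange points are the 3 pairs past an adjusted p of 0.05: Zfp219 and Eif2b5 above the line, Senp3 below it.

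Summed over the shared pairs of a gene, contacts changed in 10 of 2152 gene groups (0.465%) at an adjusted p of 0.05 in the exact binomial test: 4 rose (0.186%) and 6 fell (0.279%). Eif2b5 rose from 108 to 197 contacts over 6 pairs, all 6 higher (log2 ratio 0.90, exact test, adjusted p = 0.000164). The H3K27ac coverage of its promoter bin was also higher, at 9858 in the deposited coverage after IAA against 6288 untreated, and its part in the change was not tested. Over all shared pairs of promoters with distal peaks the coverage averaged over both bins was higher after IAA, with a median log2 ratio of 0.17. Zfp219 rose from 94 to 153 over 5 pairs (0.73, exact test, adjusted p = 0.0235), with 4 pairs higher. Its promoter bin with the most coverage had 6840 untreated and 8547 after IAA, and its distal bins had a median log2 coverage ratio of 0.27. Fignl1 rose from 370 to 482 over 19 pairs (0.41, exact test, adjusted p = 0.0165), of which 15 were higher. Another 5 of its 24 untreated pairs were not called again, among them a pair 164 kb away with 40 contacts that the CTCF and RAD21 lists both held. Sfi1 rose from 939 to 1221 over 44 pairs (0.41, exact test, adjusted p = 1.41e-07), of which 39 were higher. The coverage of its promoter bin with the most was 13396 untreated and 15875 after IAA. Its distal bins had a median log2 coverage ratio of 0.39, beside 0.21 for the distal bins of all shared pairs of promoters with distal peaks. The part of coverage in the rises of Zfp219 and Sfi1 was not tested. Under scaling by model totals the log2 ratio of Eif2b5 was 0.65 (adjusted p = 0.00965 by the same exact test), those of Sfi1, Fignl1 and Zfp219 were 0.16, 0.16 and 0.48 and did not pass, and 1 gene group rose and 67 fell.

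L1td1, an RNA-binding protein of embryonic stem cells derived from LINE-1, fell from 113 to 48 contacts over 4 pairs, all lower (log2 ratio -1.21, exact test, adjusted p = 0.000362). Its leading pairs lay 114 to 120 kb downstream, beyond 2 other genes, and went from 30, 39 and 32 contacts to 11, 13 and 16. A bin between them, at 116 kb, had 20 contacts untreated and no call after IAA. None of its 10 untreated pairs was in the CTCF or the RAD21 list, and the coverage of its promoter bin was 6409 untreated and 4912 after IAA. Dhx8, a helicase of pre-mRNA splicing, fell from 36 to 10 contacts in its 1 shared pair at 74 kb (-1.82, exact test, adjusted p = 0.0348 over gene groups). Adjusted over all shared pairs, the same counts did not pass (adjusted p = 0.0892, exact test). That pair was in the CTCF and the RAD21 list, and 8 of the 9 untreated Dhx8 pairs were not called again.

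Smaller falls were those of Rpl7l1 (179 to 108 contacts over 7 pairs, log2 ratio -0.70), Dusp27 (281 to 184 over 7 pairs, -0.58), Eif4a2 (269 to 179 over 4 pairs, -0.56) and Dppa5a (451 to 334 over 4 pairs, -0.40). Their adjusted p-values were 0.0174, 0.0101, 0.0174 and 0.0235 by the exact binomial test. All 7 pairs of Dusp27 were lower, all skipped a nearer start, and the 4 leading distal bins lay in introns of Gpa33. The coverage of the Dusp27 promoter bin was 6643 untreated and 6255 after IAA. Its distal bins had a median log2 coverage ratio of -0.15, beside 0.21 over all shared pairs of promoters with distal peaks. The part of coverage in this fall was not tested. At Dppa5a 3 of 4 pairs were lower, and the bin 8 kb downstream had 62 contacts in both lists. Scaled by the totals over shared pairs of promoters with distal peaks, the adjusted p of Dppa5a was 0.0660 in the exact test. Of the pluripotency regulators, 20 had shared pairs, with 9 ratios above and 11 below 0 and a median of -0.08, beside a median of 0.02 over all gene groups. Dppa5a was the 1 member that fell, and 0 rose.

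Bcl2l1 had fewer called pairs after IAA, while no change in its shared contacts passed the test. It had 17 untreated interactions and 6 after IAA, and 4 were shared. Of the 17, 8 were in the CTCF list. The leading pair, 134 kb away in H13 and printed with its CTCF core, had 42 contacts untreated and 14 after IAA (log2 ratio -1.56, exact test, adjusted p = 0.112). The untreated pairs without a call after IAA had 8 to 18 contacts and lay 36 to 216 kb away. The pairs at 10 and 26 kb, in Bcl2l1 itself, had 37 and 16 contacts untreated and 47 and 21 after IAA (exact test, adjusted p = 1 for both). Pairs at 12 and 60 kb were called after IAA alone, with 15 and 9 contacts. The summed shared contacts had a log2 ratio of -0.20 (adjusted p = 1, exact binomial test).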

How the data were processed

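Members, gene lists and motifs were chosen with earlier results of these data known. Genome build mm10 and the tools Trim Galore, BWA, MACS2 and deepTools are named in the submitters' processing notes; the FitHiChIP-style column layout is from the file headers. The deposited contact counts are whole numbers per bin pair that the authors did not normalise, pooled over the 2 or 3 libraries of a group, with predicted contacts (a signal), p-values and q-values of the authors' model, per the file headers. Deposited coverage is a whole-number count per bin, per the file headers. The deposited model probability of a contact is a fraction, per the file headers, and the predicted contacts divided by it gave the model totals. The lists end at a q-value of 0.05. Bins are 2 kb for H3K27ac and 1 kb for CTCF and RAD21, which were placed on 2 kb bins to be compared.

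Bins were matched to GENCODE M21 basic transcript starts, and coordinates count from 1. A pair was shared when the same 2 bins were in both lists. Shared counts were compared by an exact two-sided binomial test (scipy 1.17.1, Python 3.11.15), adjusted by Benjamini-Hochberg over all 15551 shared interactions, or over 2152 gene groups for summed counts. Log2 ratios were scaled by the totals of all shared interactions. Shares have 95% Wilson intervals, which cover counting error only. Differences of shares within classes are weighted by the pairs with the feature. In simulated counts over the 15551 shared interactions, with 200 changed, the test recovered 7.00% of 2-fold, 69.5% of 4-fold and 75.5% of 8-fold changes, so most 2-fold changes are not detectable at this depth. The simulated counts were Poisson draws without spread between libraries, and no pair had to be called in both lists. Recovery in the real lists was therefore not measured.

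The named genes were the 10 with the most contacts, the 10 with the most distal bins, the 3 with the most contacts in each fixed list, and up to 5 rises and 5 falls past an adjusted p of 0.05 with at least 20 contacts. The named pairs were the 5 with the most contacts, the changed pairs, the 3 that skip the most promoter bins at 20 or more contacts, and 3 with at least 25 contacts in each list alone. Sox2, Klf4, Klf2, Nanog, Pou5f1, Mycn, Myc and the shared distal bins were named after their values were seen. Alternatives covered the q-value, contact count, span, bin tolerance, list length, scaling, annotation, classes and motif matching. Some genes that these rules name are not reported here.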

Additional observations from a re-analysis of the deposited data

How the results depend on the processing

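No paired analysis was possible because each group is a single list with no values per library, and for that reason the replicate block and leaving out each replicate were not run. No result could be set against replicate spread, and calls near 7 contacts are limited by depth. Of 75 alternative values, 40 lay inside the reported interval or, for counts, within 1.5 times. The share called again was 67.1% when each bin could differ by 1 bin, 51.1% with at least 10 untreated contacts, 51.1% with both lists at the same length and 46.7% under 100 kb, against 44.9% as reported. The share that skips was 33.5% at a q-value of 0.01, 30.4% with at least 10 contacts, 30.1% under 100 kb and 28.9% with peak anchors alone. The share in the linked gene was 23.1% at a q-value of 0.01, 24.8% with at least 10 contacts, 24.8% under 100 kb and 23.9% with the comprehensive annotation, which was added after seeing the data. The difference by skipping was -1.50 points with classes of contacts alone, also added after seeing the data, and that by CTCF interaction was -14.7 points with the 1-bin tolerance.

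With model totals, 18 shared pairs changed (0 higher, 18 lower) and 68 gene groups (1 higher, 67 lower), of which 7 were among the reported 10. At an adjusted p of 0.01, 1 pair changed (0 higher) and 3 gene groups (2 higher, 1 lower). At a q-value of 0.01, 2 pairs changed (1 higher, 1 lower) and 9 gene groups (2 higher, 7 lower), of which 8 were among the reported 10. Without adjustment, 182 pairs and 111 gene groups had a p under 0.05, a setting added after seeing the data. The counts of changed pairs under these settings were not set against all shared interactions, so they are not a result about these pairs. The median log2 ratio changed sign, to -0.22 with model totals, -0.17 with contacts divided by anchor coverage and -0.03 with at least 10 contacts; it was 0.03 at a q-value of 0.01 and 0.06 scaled by shared pairs. Exact matches were found in 3.37% of distal bins for the CTCF core and in 0 for the OCT4-SOX2 composite. The cause of these differences was not tested.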

Other observations

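Transcript starts of non-coding genes were not used in the rule. Distal bins that overlapped only non-coding genes skipped a nearer protein-coding start in 28.9% of the untreated interactions (26.2 to 31.6), close to the 31.1% (29.6 to 32.7) of bins in no gene. Their shared pairs had a median log2 ratio of -0.07, with 281 of 528 below 0.

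The share of untreated interactions called again ranged over chromosomes from 37.6% of 314 on chromosome 19 to 53.2% of 560 on chromosome 6. Interactions with an anchor of the CTCF list between their bins were called again in 40.1% of 5184, and those without one in 49.9% of 4964. Within classes of contact count and span the difference was -3.15 percentage points (-5.54 to -0.75).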
